A study of Mus musculus with 6 samples.

Results

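Interferon-stimulated genes are the antiviral and immune genes that cells switch on when interferon binds its receptors, and 41 of them were followed here in cells labelled as regulatory T cells (Treg), with and without deletion of the histone acetyltransferase p300. The genes were listed by name as well-known targets of type I and type II interferon, but with earlier results of these data known. The p300-deleted group carried the genotype fl-p300/Foxp3cre, in which Cre recombinase expressed from Foxp3 is meant to remove floxed p300 in Foxp3-expressing cells. The control group carried Foxp3cre, although its sample titles read WT, so the Cre is common to both. All mice were C57Bl/6, and the labels give neither their age nor whether animals were pooled. CD4+CD25+ cells were separated magnetically and total RNA from 3 p300-deleted and 3 control samples was hybridised, 1 expression array per sample. The samples are described as independent, without saying whether each came from its own animal, so the p-values rest on sample-to-sample spread, part of which may be technical.

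The 41 genes were read through probe sets that the platform annotation assigns to that symbol alone, and for each gene the brightest probe set was used. A probe set of their own was present for 36, and all 36 passed the filter that left out the dimmest 30% of genes, among 8675 genes tested of 12393. Ddx58, Ifi44 and Xaf1 had no probe set named for them, and those of Isg15 and Tgtp1 list several symbols, so these 5 genes were not analysed here. Values are log2 signals, and differences are p300-deleted minus control on that log2 scale. A gene was called changed when its limma p, adjusted by Benjamini-Hochberg over the 8675 genes, was under 0.05.

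Type I interferon (alpha and beta) signals through the kinases JAK1 and TYK2 to a complex that holds STAT2 and IRF9 and binds the interferon-stimulated response element (ISRE). Interferon gamma acts through JAK1 and JAK2 on genes with a gamma-activated site (GAS), and through IRF1. p300 and its paralogue CBP are general coactivators that STAT and IRF factors can recruit to promoters. In T cells a low level of interferon-stimulated transcripts is present without infection and rises with exposure to interferon.

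The arrays had medians of 5.38 to 5.46. With 0 probe sets named for Ep300, the p300 gene, the deletion itself could not be read. T cell markers were bright in all arrays, with Cd3e at 11.21 to 11.63 and overlapping groups. Cd4 read 9.86, 10.07 and 9.74 in p300-deleted arrays, against 9.45, 8.91 and 9.27 in controls, without overlap. Its difference of 0.68 was not called (adjusted p = 0.0746 by limma). Of the CD8 markers, Cd8a was near the dim limit of 3.91 at 3.77 to 4.11. The other CD8 marker, Cd8b1, was well above that limit, at 6.72, 6.998 and 6.99 in p300-deleted arrays, against 6.52, 6.55 and 6.58 in controls. Its groups did not overlap, and its difference of 0.35 was not called (adjusted p = 0.161 by limma). Foxp3, the factor that defines Treg, read 2.57, 3.04 and 3.15 in p300-deleted arrays, against 9.63, 9.35 and 9.39 in controls, so the defining marker of the labelled cell type lay below the dim limit in the p300-deleted arrays. Ribosomal 18S control probe sets averaged 7.74, 9.47 and 7.91 in p300-deleted arrays, against 5.68, 6.03 and 8.69 in controls. RNA quality, read as the excess of 3' over 5' signal for Gapdh, was 0.057 to 0.14 in p300-deleted arrays and 0.21 to 0.59 in controls. The part of these technical differences in the results was not tested beyond the alternatives given.

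The ISRE is the element through which type I interferon acts, and promoters are printed for the 4 genes of lowest p that hold an ISRE core in the RefSeq promoter table of build GRCm38.p6. The ISRE core searched was GAAA, any 2 bases and GAAA, on both strands, in 250 bases before to 50 after the start of the gene, and matches are in capitals. The 250 bases before the start are shown 5′ to 3′ on the strand of the gene, where a match on the other strand reads TTTC, any 2 bases and TTTC. Ifit3 lies at chr19:34583279-34583528 on the plus strand, Ifit1 at chr19:34640639-34640888 on the plus strand, Trim30a at chr7:104465194-104465443 on the minus strand and Stat2 at chr10:128270248-128270497 on the plus strand.
Ifit3: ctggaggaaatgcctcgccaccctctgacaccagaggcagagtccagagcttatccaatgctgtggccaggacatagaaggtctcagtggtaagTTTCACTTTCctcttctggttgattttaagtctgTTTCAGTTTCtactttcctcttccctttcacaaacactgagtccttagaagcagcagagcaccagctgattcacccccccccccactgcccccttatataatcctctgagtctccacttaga
Ifit1: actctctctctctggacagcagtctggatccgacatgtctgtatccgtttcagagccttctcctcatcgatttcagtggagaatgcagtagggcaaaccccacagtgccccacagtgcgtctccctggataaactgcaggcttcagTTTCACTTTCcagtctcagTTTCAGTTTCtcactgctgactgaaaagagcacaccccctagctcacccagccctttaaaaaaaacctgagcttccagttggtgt
Trim30a: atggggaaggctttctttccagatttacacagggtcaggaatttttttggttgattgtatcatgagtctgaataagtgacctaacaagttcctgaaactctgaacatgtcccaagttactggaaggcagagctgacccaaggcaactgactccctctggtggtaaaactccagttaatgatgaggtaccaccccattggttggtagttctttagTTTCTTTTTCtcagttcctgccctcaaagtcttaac
Stat2: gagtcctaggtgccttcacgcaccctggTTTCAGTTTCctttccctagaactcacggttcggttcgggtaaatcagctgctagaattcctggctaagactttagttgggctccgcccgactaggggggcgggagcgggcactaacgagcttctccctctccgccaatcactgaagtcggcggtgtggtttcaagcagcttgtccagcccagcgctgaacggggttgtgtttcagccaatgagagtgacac
Ifit3 and Ifit1 each hold a pair of cores with the same letters, TTTCACTTTC and TTTCAGTTTC, starting 156 and 122 bases before the start of Ifit3 and 104 and 85 bases before that of Ifit1. Trim30a, of which 1 of several listed promoters is shown, holds TTTCTTTTTC from 36 bases before the start, and Stat2 holds TTTCAGTTTC from 222 bases before it.

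None of these 4 genes was called, at differences of 0.87 for Ifit3, 0.75 for Ifit1, 0.30 for Trim30a and 0.52 for Stat2. A further 3 genes with the same core, also not called, are shown because their differences were smaller, at 0.022 for Oas1a, -0.18 for Gbp3 and 0.24 for Igtp, and they were chosen after their values were seen.
Oas1a: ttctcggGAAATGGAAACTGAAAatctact
Gbp3: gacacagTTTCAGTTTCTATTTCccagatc
Igtp: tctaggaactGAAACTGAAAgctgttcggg
These are 30-base windows at chr5:120907523-120907552 on the minus strand for Oas1a, chr3:142559992-142560021 on the plus strand for Gbp3 and chr11:58199512-58199541 on the plus strand for Igtp. In Oas1a and Gbp3, 2 cores overlap by 4 bases, and Igtp holds 1.

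Of the 41 genes, 32 had an entry in the promoter table, and 18 of these (56.2%) held an ISRE core, compared with 1079 of 27025 genes (3.99%) and 3.44% of all promoters. The GAS core searched, TTC, any 3 bases and GAA, which reads the same pattern on both strands, was found in 11 of the 32 (34.4%), compared with 9.55% of all genes and 8.3% of all promoters. In Igtp a GAS core starts 45 bases before the start, just ahead of the ISRE core, which starts 34 bases before it. Measured differences of genes with and without an ISRE core covered overlapping ranges. The 15 measured genes with a core had differences from -0.18 to 0.87 with a median of 0.22, and the 12 without one had differences from -0.020 to 1.15 with a median of 0.19. A match is a description of letters in this window, and Oasl2, with the largest difference, held no ISRE core in it. Iigp1, the only gene called below, had no entry in the promoter table and was not searched. The others without an entry were Usp18, Dhx58, Zbp1, Oas2, Mx1, Rtp4, Ifi27l2a and Parp14.

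Most interferon-stimulated genes had slightly higher means in p300-deleted cells, but only Iigp1 was called. Of the 36 tested, 1 rose (2.78%) and 0 fell by limma, beside 0.991% of all tested genes called higher, 0.726% called lower and 1.72% in either direction. Without the filter on dim genes 1 was called, again Iigp1, where 1.18% of all 12393 genes were. At an adjusted p under 0.10 by limma, 3 were higher, Iigp1, Oasl2 and Ifit3 (8.33%, where all genes gave 2.27%), and 0 were lower (where all genes gave 2.33%). At an unadjusted p under 0.05, 8 were higher (22.2%, where all genes gave 8.21%) and 0 were lower (where all genes gave 9.89%). Positive differences were found for 33 of 36, against 45% of all genes, and the median difference was 0.22, beside -0.026 for all genes tested. Without overlap between groups, 8 genes were higher (22.2%, all genes 10.5%) and 0 were lower (all genes 13.2%). These shares describe the list, which was chosen with earlier results of these data known. In bulk RNA, a change in the fraction of cells that respond and a change in RNA per cell cannot be told apart.

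**Figure D1:**
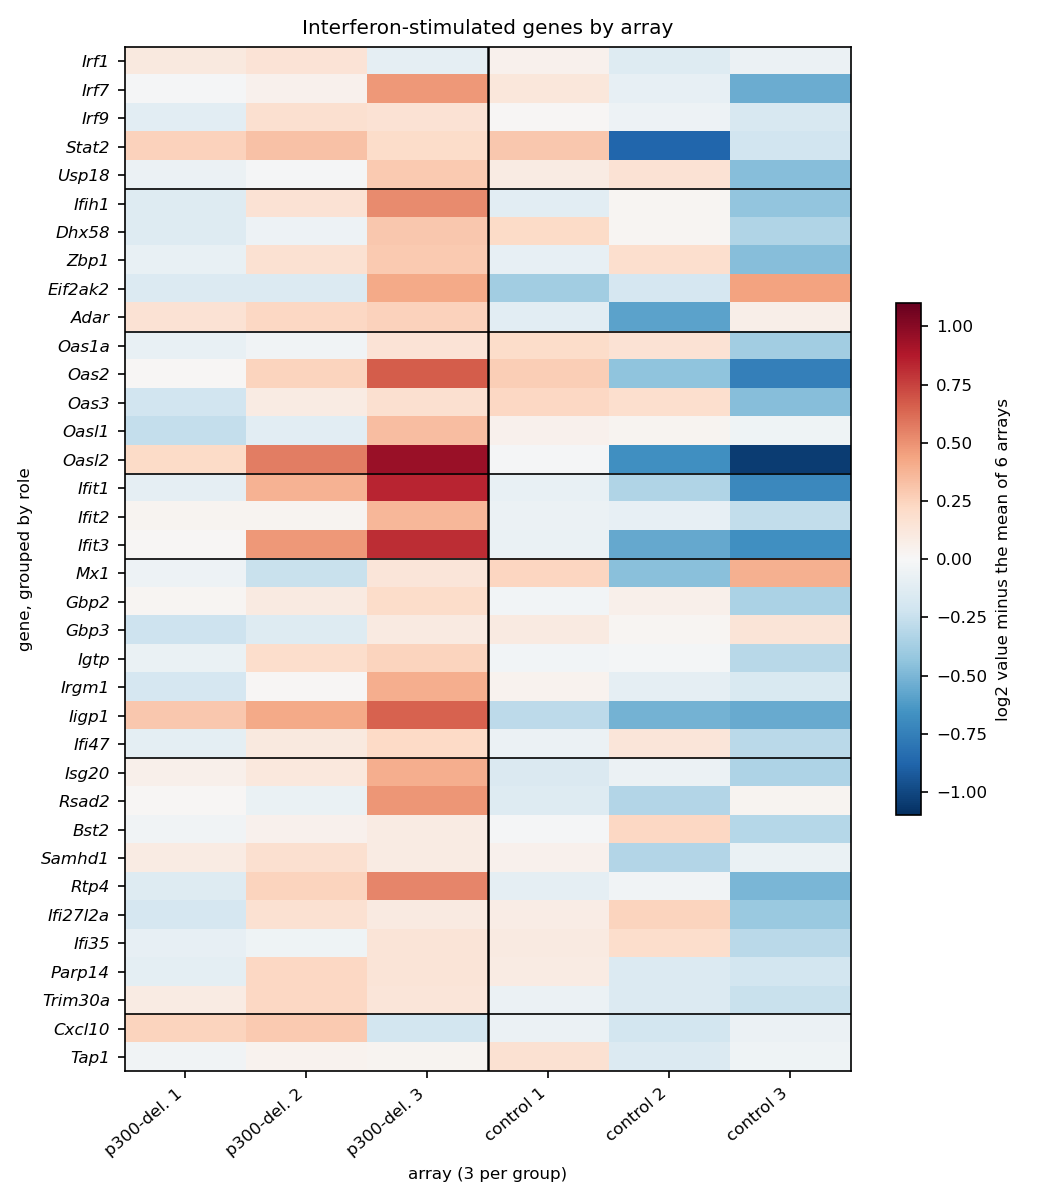
Log2 value of 36 interferon-stimulated genes minus the mean of the 6 arrays (colour) in 3 p300-deleted arrays, left, and 3 control arrays, right, with genes in rows grouped by role. The third p300-deleted array was the highest of all 6 for 20 genes and the third control array the lowest for 24, and the first p300-deleted array the highest for 0.

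The arrays of each group differed among themselves. p300-deleted 3 was the highest array for 20 of the 36 genes (all genes 9.95%) and control 3 the lowest for 24 (all genes 25.9%). The mean of the 36 genes was 8.20, 8.35 and 8.53 in p300-deleted arrays 1, 2 and 3, against 8.24, 8.09 and 7.94 in control arrays 1, 2 and 3. The groups overlap, since p300-deleted 1 lies below control 1. The median SD was 0.19 among p300-deleted arrays and 0.24 among controls for the 36 genes, and 0.10 and 0.17 for all genes tested. Without control 3 the median difference was 0.13 and 27 of 36 differences were positive (all genes 41.4%), and without p300-deleted 3 these were 0.17 and 27 of 36.

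**Figure D2:**
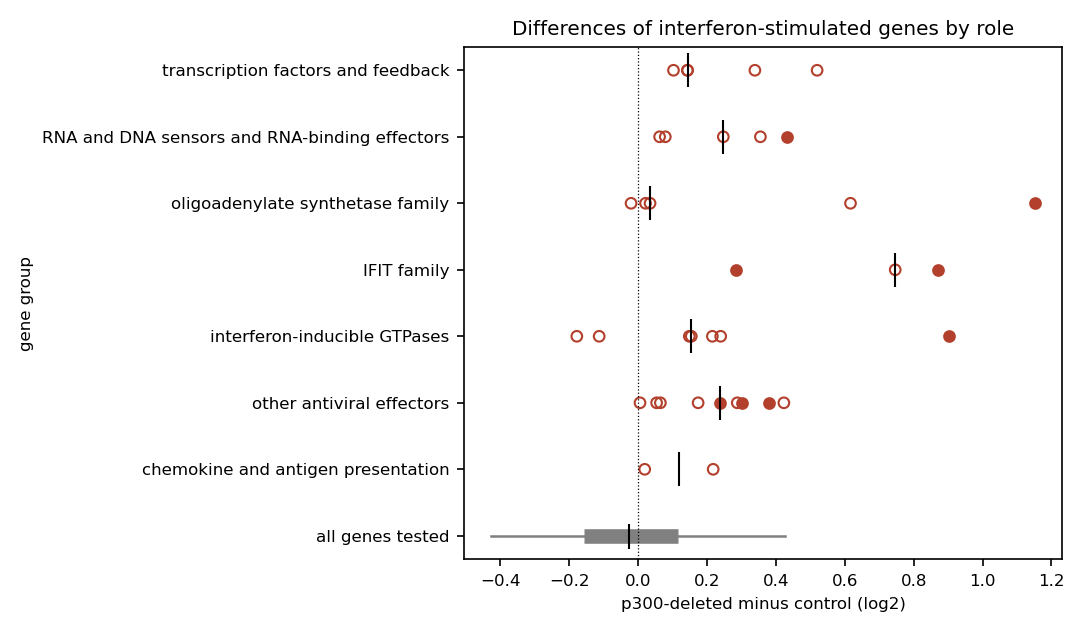
Log2 difference (p300-deleted minus control) of each interferon-stimulated gene, in rows by role (circles, filled where the arrays of the groups do not overlap; black bars, medians of the rows). The bottom row gives all 8675 genes tested, with the median at -0.026, a box from -0.16 to 0.12 for the middle quartiles and a line for the 5th to 95th percentiles; Oasl2 at 1.15, Iigp1 at 0.90, Ifit3 at 0.87, Ifit1 at 0.75, Oas2 at 0.62, Stat2 at 0.52 and Adar at 0.43 lie beyond its upper end.

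The gene that rose was Iigp1, an immunity-related GTPase induced by interferon that attacks the vacuoles of intracellular parasites. Iigp1 read 9.18, 9.30 and 9.53 in p300-deleted arrays, against 8.60, 8.36 and 8.33 in controls. All p300-deleted arrays lay above all controls, and the gap between the groups was wider than the range within either. Iigp1 averaged 9.33 ± 0.18 in p300-deleted arrays and 8.43 ± 0.15 in controls (SD, n = 3 each). The difference was 0.90 (SE 0.13, adjusted p = 0.0223 by limma), which is 1.87-fold. Its other probe set read 7.99, 8.23 and 8.22 in p300-deleted arrays, against 7.41, 7.42 and 7.22 in controls. That difference was 0.80 (adjusted p = 0.0355 by limma over all probe sets of 1 symbol). Iigp1 was past the threshold under 11 of 15 alternatives, and its difference was 0.79 to 0.99 in all of them. The call was lost without p300-deleted 2 (0.92, adjusted p = 0.0987), without p300-deleted 3 (0.80, adjusted p = 0.0713), without control 1 (0.99, adjusted p = 0.107) and with 18S signal as a covariate (0.98, adjusted p = 0.0896).

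The other interferon-inducible GTPases, several of which act beside Iigp1 at pathogen vacuoles, did not pass. Igtp, a regulatory GTPase of this family, read 11.12, 11.39 and 11.44 in p300-deleted arrays, against 11.17, 11.17 and 10.89 in controls. Its difference was 0.24 (adjusted p = 0.384), and the groups overlap because p300-deleted 1 lies below controls 1 and 2. Gbp2, a guanylate-binding protein induced by interferon gamma, read 9.59, 9.66 and 9.76 in p300-deleted arrays, against 9.53, 9.62 and 9.21 in controls. Its difference was 0.22 (adjusted p = 0.432), with p300-deleted 1 below control 2. Irgm1 and Ifi47 differed by 0.15 each, with overlapping arrays. Gbp3 was at -0.18 (adjusted p = 0.475), the lowest difference of the 36.

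Mx1, a dynamin-like GTPase that blocks influenza viruses and is non-functional in many laboratory mouse strains, had a negative difference. It read 5.83, 5.64 and 6.02 in p300-deleted arrays, against 6.12, 5.43 and 6.28 in controls. The control arrays spanned the p300-deleted ones, and the difference was -0.11 (adjusted p = 0.831). Without control 3 it was 0.056.

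The IFIT genes encode proteins with tetratricopeptide repeats that bind viral RNA, and the 3 tested had a median difference of 0.75. Ifit3 read 7.18, 7.65 and 7.98 in p300-deleted arrays, against 7.09, 6.61 and 6.49 in controls. The arrays did not overlap, although p300-deleted 1 lay close above control 1, and the difference was 0.87 (SE 0.22, adjusted p = 0.0936). Ifit1 read 7.71, 8.18 and 8.63 in p300-deleted arrays, against 7.72, 7.47 and 7.09 in controls. Here p300-deleted 1 and control 1 were nearly equal, and the difference was 0.75 (SE 0.24, adjusted p = 0.162). Ifit2 read 8.33, 8.33 and 8.67 in p300-deleted arrays, against 8.24, 8.22 and 8.03 in controls, without overlap. Its difference of 0.285 (SE 0.13, adjusted p = 0.292) was smaller than those of Ifit3 and Ifit1. None of the 3 passed under any of the 15 alternatives, with a lowest adjusted p of 0.0665 for Ifit3.

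**Figure D3:**
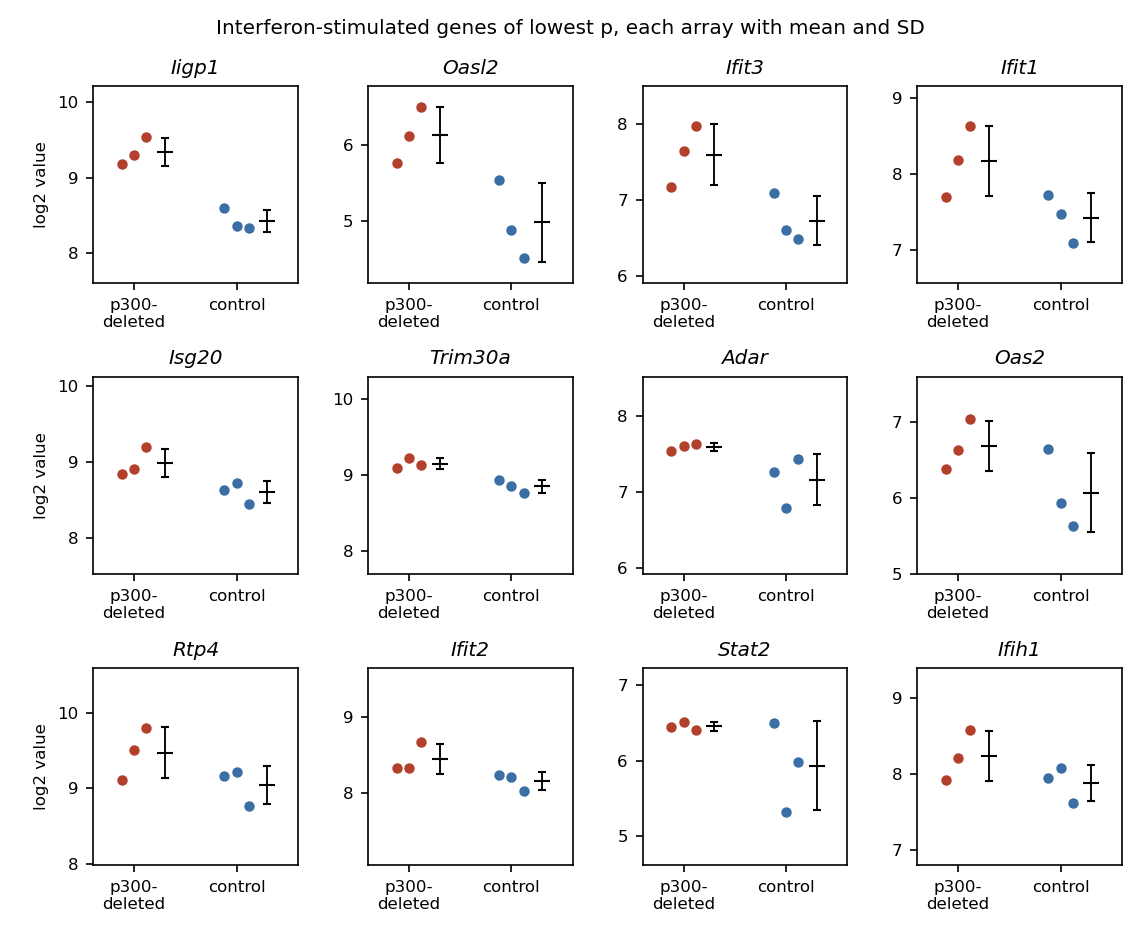
Log2 values of the 12 interferon-stimulated genes of lowest p in each array (points; p300-deleted left, control right, arrays 1 to 3 from left to right) with the mean and SD of 3 arrays (black). In Iigp1 all p300-deleted arrays lie well above the controls, and in Oasl2, Ifit3 and Ifit1 the first array of each group lies nearest to the other group.

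Within the oligoadenylate synthetase family the genes differed among themselves. These proteins sense viral RNA, and the OAS members make the oligoadenylates that activate RNase L, while mouse Oasl1 and Oasl2 are relatives of the family. Oasl2 had the largest difference of the 36 genes. It read 5.77, 6.12 and 6.50 in p300-deleted arrays, against 5.54, 4.88 and 4.51 in controls. The arrays did not overlap, and the difference was 1.15 (SE 0.27, adjusted p = 0.0764), which is 2.22-fold. Oasl2 did not pass under any of 14 alternatives (adjusted p 0.0584 to 0.248, differences 0.79 to 1.46). Oas2 read 6.39, 6.63 and 7.05 in p300-deleted arrays, against 6.65, 5.94 and 5.63 in controls. Control 1 lay within the p300-deleted range, and the difference was 0.62 (SE 0.26, adjusted p = 0.263). Oas1a, Oas3 and Oasl1 were at 0.022, 0.035 and -0.020, so the median of the 5 was 0.035.

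The transcription factors of the pathway all had positive differences, from 0.10 to 0.52, and 0 of the 4 passed (0 at an unadjusted p under 0.05). Stat2, the subunit that carries the activation domain of the type I complex, read 6.45, 6.52 and 6.40 in p300-deleted arrays, against 6.49, 5.32 and 5.98 in controls. The p300-deleted arrays were nearly equal, while the controls spanned over a log2 unit and control 1 lay within the p300-deleted range. The difference was 0.52 (SE 0.25, adjusted p = 0.319). A dimmer probe set of Stat2 read 5.54, 5.68 and 5.46 in p300-deleted arrays, against 4.98, 4.35 and 5.19 in controls, without overlap, with a difference of 0.72 (adjusted p = 0.158 over all probe sets).

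Irf7, which amplifies the type I response, read 8.32, 8.37 and 8.80 in p300-deleted arrays, against 8.45, 8.24 and 7.78 in controls. It was highest in p300-deleted 3 and lowest in control 3, and its difference of 0.34 (adjusted p = 0.403) was within the spread. Irf9, the DNA-binding subunit of the type I complex, read 8.75, 9.04 and 9.02 in p300-deleted arrays, against 8.88, 8.81 and 8.69 in controls, a difference of 0.14 (adjusted p = 0.582). Irf1, the factor induced by interferon gamma, read 10.23, 10.27 and 10.02 in p300-deleted arrays, against 10.17, 9.98 and 10.06 in controls, a difference of 0.10 (adjusted p = 0.684). The arrays of both genes overlap. Usp18, which removes ISG15 from proteins and restrains the type I receptor, read 8.28, 8.33 and 8.63 in p300-deleted arrays, against 8.43, 8.50 and 7.88 in controls. Control 3 was the lowest array, the difference was 0.14 (adjusted p = 0.729), and without control 3 it was -0.052.

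Among the sensors and RNA-binding effectors, 5 of 5 tested had positive differences (all genes 45%) with a median of 0.25, and 0 passed. At an unadjusted p under 0.05 by limma, 1 was higher (all genes 8.21%). Adar, which edits adenosine in RNA and has an interferon-induced isoform, read 7.54, 7.61 and 7.64 in p300-deleted arrays, against 7.26, 6.79 and 7.44 in controls. The arrays did not overlap, with the p300-deleted arrays close together, and the difference was 0.43 (SE 0.16, adjusted p = 0.217). Ifih1, which encodes the RNA sensor MDA5, read 7.92, 8.22 and 8.58 in p300-deleted arrays, against 7.95, 8.08 and 7.62 in controls. Its groups overlap, and the difference was 0.36 (SE 0.18, adjusted p = 0.356).

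Zbp1, a sensor of Z-form nucleic acids, gave different answers from its probe sets. The brightest read 8.18, 8.43 and 8.55 in p300-deleted arrays, against 8.17, 8.44 and 7.79 in controls, with overlap and a difference of 0.25 (adjusted p = 0.511). The other, of nearly the same brightness, read 8.38, 8.60 and 8.74 in p300-deleted arrays, against 8.03, 7.63 and 8.04 in controls. It did not overlap between groups, and its difference was 0.67 (adjusted p = 0.0984 over all probe sets). The kinase Eif2ak2 (PKR), at 0.079, and Dhx58 (LGP2), at 0.063, changed sign under some alternatives. A slightly dimmer probe set of Eif2ak2 was at 0.33, with overlap, and the dim ones of Dhx58 were at -0.12 and -0.013.

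Of the other antiviral effectors, 9 of 9 tested had positive differences (all genes 45%), from 0.0057 to 0.42, with a median of 0.24, and 0 passed. At an unadjusted p under 0.05 by limma, 2 were higher (all genes 8.21%). Isg20, an exonuclease that degrades viral RNA, read 8.84, 8.91 and 9.19 in p300-deleted arrays, against 8.63, 8.73 and 8.45 in controls. The arrays did not overlap, and the difference was 0.38 (SE 0.13, adjusted p = 0.183). Trim30a, a mouse TRIM protein that restrains inflammatory signalling, read 9.09, 9.23 and 9.13 in p300-deleted arrays, against 8.93, 8.85 and 8.76 in controls. These did not overlap either, with a difference of 0.30 (SE 0.10, adjusted p = 0.181), and the other probe set was at 0.21.

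Rtp4, an interferon-induced chaperone of receptor transport, read 9.12, 9.50 and 9.80 in p300-deleted arrays, against 9.17, 9.22 and 8.76 in controls. p300-deleted 1 lay below controls 1 and 2, and the difference was 0.42 (SE 0.19, adjusted p = 0.292). Samhd1, which depletes the nucleotides that retroviruses need, did not overlap by its brightest probe set (0.24, adjusted p = 0.346), but its next brightest was at -0.044 and overlapped. Its dimmer probe sets were at 0.31, without overlap (adjusted p = 0.252 by limma over all probe sets), and at 0.088. Rsad2 (viperin) was at 0.29 and Parp14 at 0.17. Bst2 (tetherin) at 0.065, Ifi27l2a at 0.054 and Ifi35 at 0.0057 were close to 0, and each turned negative without control 3, at -0.076, -0.14 and -0.14. The chemokine Cxcl10 was at 0.22 and the peptide transporter Tap1 at 0.019, both with overlapping arrays.

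Among the genes that make and receive interferon none was called. Of 10 tested interferons, receptors and Janus kinases, 0 passed by limma, and their median was -0.13. By unadjusted p under 0.05, 1 was lower (all genes 9.89%) and 0 were higher (all genes 8.21%). Jak1, the kinase shared by both interferon pathways, was at -0.37 (adjusted p = 0.229) and Ifnar1, a chain of the type I receptor, at -0.29 (adjusted p = 0.325). Il10rb, a chain of the IL-10 and type III interferon receptors, was at 0.19 (adjusted p = 0.352). The interferon genes Ifnb1, Ifna2 and Ifna4 were below the dim limit, with Ifnb1 at 2.93 to 3.05 in p300-deleted arrays and 2.93 to 3.41 in controls. Ifng was measurable, at 8.43, 7.91 and 7.15 in p300-deleted arrays, against 8.29, 8.19 and 7.63 in controls. The difference of Ifng was -0.21 (adjusted p = 0.779), and its part in the values of the interferon-stimulated genes was not tested.

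Among 7 other STAT and IRF factors 0 passed (0 at an unadjusted p under 0.05), with a median of -0.0055 and values of 0.23 for Stat3, 0.19 for Irf4 and -0.070 for Irf3. Among 6 adaptors and kinases of nucleic acid sensing 0 passed, 5 had positive differences (all genes 45%) and the median was 0.18. By unadjusted p under 0.05, 1 was lower (all genes 9.89%) and 0 were higher (all genes 8.21%). The adaptor Myd88 was at -0.27 with arrays that did not overlap (adjusted p = 0.227), the ligase Traf6 at 0.23 and the kinase Tbk1 at 0.18. Among 5 feedback inhibitors 0 passed, 3 had positive differences (all genes 45%) and the median was 0.21. By unadjusted p under 0.05, 2 were higher (all genes 8.21%). Socs1, an inhibitor of Janus kinases induced by interferon, was at 0.50 (SE 0.17, adjusted p = 0.170), Socs3 at 0.30 (adjusted p = 0.273) and the phosphatase Ptpn6 at 0.21 (adjusted p = 0.333).

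A list of further interferon-induced genes gave 40 tested. Of these 29 had positive differences (all genes 45%), the median was 0.155 (all genes -0.026), and 0 passed by limma. By unadjusted p under 0.05, 12 of the 40 were higher (all genes 8.21%) and 0 were lower (all genes 9.89%). The arrays did not overlap for 13 of the 40 that were higher (all genes 10.5%) and 1 that was lower (all genes 13.2%). Gbp6, a guanylate-binding protein, read 8.79, 8.88 and 8.86 in p300-deleted arrays, against 8.45, 7.99 and 8.24 in controls, a difference of 0.62 (SE 0.13, adjusted p = 0.0567). Ifitm2, a membrane protein that blocks virus entry, read 7.27, 7.02 and 7.13 in p300-deleted arrays, against 6.38, 6.75 and 6.39 in controls, a difference of 0.63 (SE 0.13, adjusted p = 0.0567). Slfn2, a schlafen protein of T cell quiescence, was at 0.59 (SE 0.16, adjusted p = 0.101). For each of these 3 genes all p300-deleted arrays lay above all controls.

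Markers of other cells that the separation could hold also differed between the arrays. The 2 CD8 T cell markers, of which 0 were called, averaged 5.36, 5.38 and 5.55 in p300-deleted arrays 1, 2 and 3, against 5.18, 5.20 and 5.25 in controls. All p300-deleted arrays lay above the controls in this mean, which includes Cd8a near the dim limit. The 7 tested neutrophil markers, all with positive differences (all genes 45%) and 0 called, averaged 7.78, 5.59 and 6.53 in p300-deleted arrays 1, 2 and 3, against 5.03, 4.43 and 5.24 in controls. Their median difference was 1.80, and 6 of 7 were higher without overlap (all genes 10.5%). By unadjusted p under 0.05 by limma, 6 were higher (all genes 8.21%). The 8 tested monocyte and macrophage markers, all with positive differences (all genes 45%) and 0 called, averaged 6.92, 5.72 and 5.33 in p300-deleted arrays, against 4.90, 4.62 and 5.37 in controls. Their median difference was 0.99, and 0 of 8 were higher without overlap (all genes 10.5%). By unadjusted p under 0.05 by limma, 5 were higher (all genes 8.21%). The neutrophil and macrophage lists were highest in p300-deleted 1. So were the plasma cell, NK cell, mast cell and basophil, and CD4 T cell and Treg lists given below. The 6 tested markers of plasmacytoid dendritic cells, a main source of type I interferon, averaged 6.62 to 7.03 in p300-deleted arrays and 6.85 to 7.04 in controls, with a median difference of -0.012. Of these, only Spib was called, and it fell by 0.95 (adjusted p = 0.0368 by limma, all genes called lower 0.726%). Siglech and Runx2, also on this list, had no probe set of their own. Plasma cell markers, of which 5 of 7 rose (all genes 0.991%), averaged 8.46 to 8.996 in p300-deleted arrays, against 7.66 to 7.76 in controls. Mast cell and basophil markers, of which 6 of 8 rose (all genes 0.991%), averaged 5.83 to 6.50 in p300-deleted arrays, against 4.83 to 4.97 in controls. NK cell markers, of which 1 of 5 rose (all genes 0.991%), averaged 7.30 to 7.63 in p300-deleted arrays, against 6.93 to 7.08 in controls. The 5 tested B cell markers, all with negative differences and 0 called, averaged 6.67 to 7.50 in p300-deleted arrays, against 7.29 to 7.52 in controls. Conventional dendritic cell markers, of which 0 of 4 were called, averaged 6.72 to 6.75 in p300-deleted arrays, against 6.52 to 6.96 in controls. CD4 T cell and Treg markers other than Foxp3 averaged 10.05 to 10.11 in p300-deleted arrays and 9.67 to 9.91 in controls. The part of these cells in the differences of interferon-stimulated genes was not tested.

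**Figure D4:**
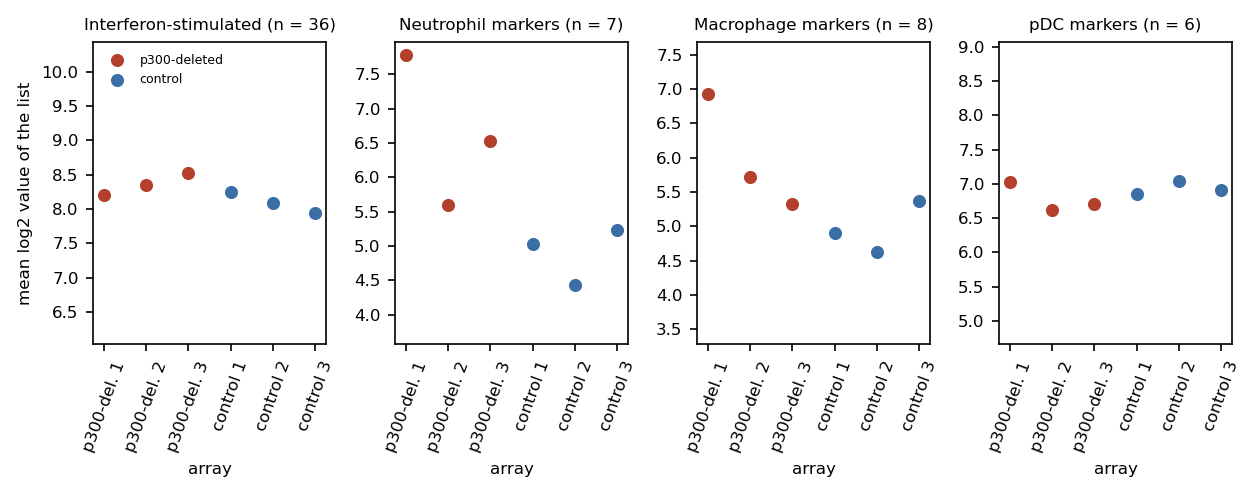
Mean log2 value per array of the 36 interferon-stimulated genes and of markers of neutrophils, of monocytes and macrophages and of plasmacytoid dendritic cells (pDC), with p300-deleted arrays in red and controls in blue, on axes of equal span. Interferon-stimulated genes averaged 8.20 to 8.53 in p300-deleted arrays and 7.94 to 8.24 in controls. Neutrophil markers averaged 5.59 to 7.78 and 4.43 to 5.24, and macrophage markers 5.33 to 6.92 and 4.62 to 5.37. The other marker lists are given in the text and not drawn.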

How the data were processed

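The authors deposited a log2 value for each probe set of 6 arrays, computed with RMA, per the submitters' processing notes, which give no version. RMA as usually run corrects background, equalizes the arrays' distributions and summarizes probes. Such equalizing hides changes of total RNA, and remaining background compresses differences of dim probe sets. No depth applies, and 3 arrays per group limit the precision.

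Of 22690 probe sets, 64 were controls and left out, 20380 had 1 gene symbol, 691 several and 1555 none. By gene ID, 20351 matched the RefSeq table of GRCm38.p6. The brightest probe set of each of 12393 genes was kept, and 3718 genes with means below 3.91 were left out. Of the interferon-stimulated genes, 11 had several probe sets. Suffixes _s_at, _x_at and _a_at mark probe sets that may bind more than 1 transcript. The comparison used limma 3.58.1 (lmFit and eBayes) under R 4.3.3, with a two-sided test and no covariates, over 8675 genes. The fit was tested on simulated data.

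The genes and lists were chosen with earlier results of these data known. Values per array are given for the 12 genes of lowest p and for Mx1, Irf7, Irf9, Usp18, Irf1, Gbp2 and Igtp, by rule, and Zbp1, Samhd1 and the probe sets beside the brightest were added after their values were seen. From each pathway list, genes past the threshold or otherwise up to 3 of lowest p were named, and Ifng and the dim interferons were added after their values were seen. Alternatives were other filters, normalizations, probe set summaries and variance models, weighting of arrays, a block for replicate number, an 18S covariate and leaving out each array.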

Additional observations from a re-analysis of the deposited data

How the results depend on the processing

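Iigp1 was called under 11 of 15 alternatives, and 0 of the other interferon-stimulated genes under any. With the 18S covariate 0 were called (all genes 0.173%), and leaving out single arrays gave 0 to 1 (all genes 0.104% to 2.65%). With array weights 1 was called (2.78%, all genes 11.7%). At an adjusted p under 0.10 there were 3 (Ifit3, Iigp1 and Oasl2, 8.33%, all genes 4.6%). At an unadjusted p under 0.05 there were 8 (22.2%, all genes 18.1%). Over all genes the count of 149 (1.72%) became 95 (1.1%) with the mean of all probe sets, 1019 with array weights and 98 (1.13%) with the replicate block. It was 15 with the 18S covariate, 399 at an adjusted p under 0.10 and 1570 at an unadjusted p under 0.05. Leaving out single arrays gave 9 (without control 1) to 230 (without control 3). The titles number the replicates, but deviations of same-numbered arrays correlated at -0.07, 0.12 and -0.12, so the numbers were not taken as pairs, and the replicate block changed no call among the interferon-stimulated genes. Their median difference was 0.13 to 0.265 without single arrays. The number that lay higher without overlap, recounted without single arrays after the data had been seen, was 8 to 15 (all genes higher 12.6% to 18.3%).

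Of 536 values of single genes under alternatives, 501 kept their direction and side of the threshold, 4 lost the call (Iigp1) and 31 changed sign, all for genes that were not called and whose main difference lay between -0.11 and 0.15. The cause was not tested. With the mean of all probe sets, Dhx58 was at -0.022. With array weights, Dhx58 was at -0.11, Ifi35 at -0.065, Oas1a at -0.12, Oas3 at -0.11 and Tap1 at -0.087. With the 18S covariate, Eif2ak2 was at -0.17 and Oasl1 at 0.041. With median centring, Ifi35 was at -0.017, Oas1a at -0.00090 and Tap1 at -0.0032. Without single arrays, differences ranged over -0.076 to 0.19 for Bst2, -0.086 to 0.19 for Dhx58, -0.11 to 0.32 for Eif2ak2, -0.14 to 0.19 for Ifi27l2a, -0.14 to 0.10 for Ifi35 and -0.0047 to 0.28 for Irgm1. They ranged over -0.37 to 0.056 for Mx1, -0.17 to 0.13 for Oas1a, -0.19 to 0.16 for Oas3, -0.20 to 0.10 for Oasl1, -0.051 to 0.11 for Tap1 and -0.052 to 0.26 for Usp18. Without control 3 the sign changed for Bst2, Dhx58, Ifi27l2a, Ifi35, Mx1, Oas1a, Oas3 and Usp18, and without p300-deleted 3 for Dhx58, Eif2ak2, Ifi35, Irgm1, Oas1a and Oas3.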
